A study of Mus musculus with 12 samples.

Results

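The genes described here encode the machinery that brings newly made proteins into the endoplasmic reticulum (ER), folds them there, removes those that fail to fold, and adjusts this capacity to demand. The list holds 37 genes of 7 roles: chaperones, protein disulfide isomerases, J-domain cochaperones, small ER stress-inducible proteins, stress sensors with Xbp1, ER-associated degradation (ERAD), and the translocon with the signal peptidase. The list names genes by role and uses no measured value as a criterion, although it was drawn up with earlier results of these data known. All 37 symbols were matched to the 55401 Ensembl gene identifiers in the count files, and 36 of the 37 were among the 17569 genes that passed a filter on low counts and were tested. The member that did not pass was Derl3, a derlin of the ERAD machinery, which had 15 reads in total over 12 libraries, 0 reads in 7 libraries and at most 9 in any library.

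Proteins destined for secretion or for membranes enter the ER through the Sec61 channel, lose their signal peptide to the signal peptidase, and fold with the help of the Hsp70 chaperone BiP (encoded by Hspa5), the lectins calnexin and calreticulin, and the disulfide isomerases. When unfolded proteins build up, the membrane sensors IRE1 (Ern1), PERK (Eif2ak3) and ATF6 start the unfolded protein response (UPR): IRE1 splices the Xbp1 messenger RNA, PERK slows translation, and ATF6 is cut into a transcription factor. XBP1 and ATF6 then raise the transcription of chaperone, translocation and ERAD genes, many of which are read together as markers of ER stress.

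The libraries came from Neuro-2a, an adherent mouse neuroblastoma cell line, and 12 were made in 3 groups of 4. In all 3 groups the cells of a well received 1 µg of a GFP plasmid and 3 µg of plasmid for artificial microRNAs built on miR30, both with a CAG-type promoter as their names give it. The microRNA plasmid was a scramble control (miScramble), a pool of 3 against the RNA-binding protein gene Rbmx (miRbmx), or a pool of 2 against the related gene Rbmxl1 (miRbmxl1). GFP-positive cells were sorted 48 hours after transfection, so every library is a mixed population of transfected cells. The knockdown in the miRbmx and miRbmxl1 groups is partial. Stranded libraries were prepared from total RNA of the sorted cells after removal of ribosomal RNA. Each group has biological replicates numbered 1 to 4. What the number stands for is not stated, so p-values measure only the spread between these samples.

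A sequence feature that many UPR genes are known to share is the ER stress response element, CCAAT followed by any 9 bases and then CCACG, in which the CCAAT end is bound by the factor NF-Y and the CCACG end by ATF6 or XBP1. RefSeq promoter windows of GRCm38.p6, 250 bases before to 50 bases after the gene's start, were matched for 29 of the 37 members and searched for these letters on both strands. The element was found in 9 of the 29 members (31.0%), against 37 of 27025 genes with a window (0.137%). These 9 are shown because they are the members that carry the full element. Each line gives 29 bases read 5′ to 3′ along the strand on which the element reads CCAAT first, with its CCAAT and CCACG ends in capitals and 5 bases on either side of the element.
Calr (chr8:84847070-84847098, + strand): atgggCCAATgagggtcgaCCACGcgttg
Canx (chr11:50325795-50325823, − strand): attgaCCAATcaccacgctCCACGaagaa
Creld2 (chr15:88819515-88819543, − strand): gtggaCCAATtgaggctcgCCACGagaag
Derl3 (chr10:75893237-75893265, − strand): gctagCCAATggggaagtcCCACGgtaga
Dnajc3 (chr14:118937822-118937850, + strand): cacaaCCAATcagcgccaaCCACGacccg
Hsp90b1, distal (chr10:86705633-86705661, − strand): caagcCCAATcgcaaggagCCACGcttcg
Hsp90b1, proximal (chr10:86705528-86705556, + strand): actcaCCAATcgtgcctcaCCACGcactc
Hspa5 (chr2:34772020-34772048, + strand): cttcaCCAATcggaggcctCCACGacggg
Pdia6 (chr12:17266486-17266514, + strand): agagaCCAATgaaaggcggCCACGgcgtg
Syvn1 (chr19:6046527-6046555, + strand): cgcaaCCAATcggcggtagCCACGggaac

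The elements lay between position −212 (the distal element of Hsp90b1) and position −26 (Syvn1), where −1 is the base before the RefSeq start. The start in GENCODE, used for gene positions here, can differ: the Hspa5 element lies inside the GENCODE span of that gene. The 5 letters CCACG alone were in 23 of the 29 members and in 35.5% of all genes with a window, and every full element contains them. The letters TGACGTGG, another sequence bound by XBP1 and ATF6, were in none of the 29 members and in 0.714% of all genes. A match describes letters in a window, and these libraries hold no measurement of binding.

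Longer promoter stretches are shown for Creld2, the member with an element whose level passed the test with miRbmx, and for Hsp90b1, which carries 2 elements. Both are given along the strand of the gene, GRCm38.p6, with the elements in capitals. An element in the opposite orientation reads from CGTGG to ATTGG on this strand.
Creld2, −150 to −1 (chr15:88819496-88819645, + strand): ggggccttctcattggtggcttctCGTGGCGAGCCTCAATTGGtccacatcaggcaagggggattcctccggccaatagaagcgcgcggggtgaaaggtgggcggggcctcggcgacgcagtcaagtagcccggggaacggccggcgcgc
Hsp90b1, −220 to −81 (chr10:86705525-86705664, − strand): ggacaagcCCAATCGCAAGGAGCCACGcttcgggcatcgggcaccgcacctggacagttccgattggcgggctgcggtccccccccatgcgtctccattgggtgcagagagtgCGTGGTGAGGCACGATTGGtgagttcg

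Depth ranged from 43.1 to 52.2 M reads in genes per library. Levels are given as CPM, counts scaled to a common library size with edgeR's TMM factors. Each targeted gene was lower in its own knockdown group. Rbmx was at 57.6 to 73.3 CPM with miScramble, 22.2 to 32.6 with miRbmx and 81.9 to 90.0 with miRbmxl1. Every miRbmxl1 library thus had more Rbmx than any miScramble library. Rbmxl1 was at 31.3 to 36.7, 34.2 to 38.3 and 12.3 to 16.7 CPM in the same order of groups. The 6 sympathetic neuroblast markers reported here (Phox2a, Hand2, Gata3, Isl1, Tubb3 and Stmn2) were at 41.9 CPM or more in every library, and their summed level was 1178 to 1544 CPM with miScramble, 1293 to 1715 with miRbmx and 1291 to 1533 with miRbmxl1. The sum of 10 markers of other cell types was 51.2 to 56.2, 49.1 to 68.8 and 45.1 to 69.6 CPM in the same order, with 5 of the 10 under 1 CPM in all 12 libraries, Ptprc at 0 in 11 libraries and Csf1r at 0 in 9. Within every group, replicates 1 and 2 stood apart from replicates 3 and 4 over all genes: the first principal component, with 37.9% of the variance, separated them, and reads outside annotated features took 26.3 to 29.2% of each file in replicates 1 and 2 and 30.8 to 32.2% in replicates 3 and 4.

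The 36 tested members ranged from among the most abundant genes of these cells to moderate ones. Per kilobase of annotated exon in the miScramble libraries, the highest levels were those of Calr (calreticulin) at 364 ± 104, Hspa5 at 283 ± 82.6, Canx (calnexin) at 224 ± 12.4, and Hsp90b1 (GRP94, the Hsp90 of the ER) at 193 ± 30.2 CPM per kilobase (mean ± SD, n = 4). Neighbours among these 4 overlapped within their mean ± SD. The isomerases P4hb at 174 ± 14.2 and Pdia3 at 161 ± 30.7 CPM per kilobase came next. All 10 chaperones and isomerases except Hspa13 and Pdia6 were in the first 8 places. Xbp1 and the genes of the 3 stress sensors were lower: Xbp1 was at 39.2 ± 6.46, Atf6 at 23.0 ± 3.35, Ern1 at 17.8 ± 2.96 and Eif2ak3 at 8.16 ± 1.18 CPM per kilobase. The lowest tested member was Dnajc10 at 4.93 ± 0.489 CPM per kilobase, a level still at or above that of 55.1% of all tested genes. Derl3 was last. In its 7 libraries without a read, a count of 0 allows a level of up to 3 reads, for counting error only. That is 0.0657 to 0.0698 CPM in those libraries.

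The first comparison asked how the levels of these genes differed between cells with less Rbmx and control cells. The differences were small and mostly upward. Of the 36 tested members, 28 had a positive log2 fold change and 8 a negative one, with a median of 0.12 and a range of −0.34 (Ern1) to 0.35 (Sdf2l1). Over all 17569 genes 50.0% were positive and the median was −2.19e-05. With the replicate number as a block in edgeR's quasi-likelihood test and Benjamini-Hochberg adjustment over all tested genes, 5 members were called at an adjusted p under 0.05: Manf, Creld2, Ssr2 and Ssr3 rose and Ern1 fell. That is 13.9% of the tested members, where 8.35% of all tested genes were called, 4.16% upward and 4.19% downward. Of the 6 neuroblast markers, 5 had a positive log2 fold change in the same comparison, with a median of 0.12, a range of −0.074 to 0.19 and none called. Of the 6 tested markers of other cell types 2 were positive, with a median of −0.048, a range of −0.45 to 0.28 and none called. The part of these markers in the members' differences was not tested. In bulk libraries, fewer cells that express a gene and less RNA per cell cannot be told apart.

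**Figure D1:**
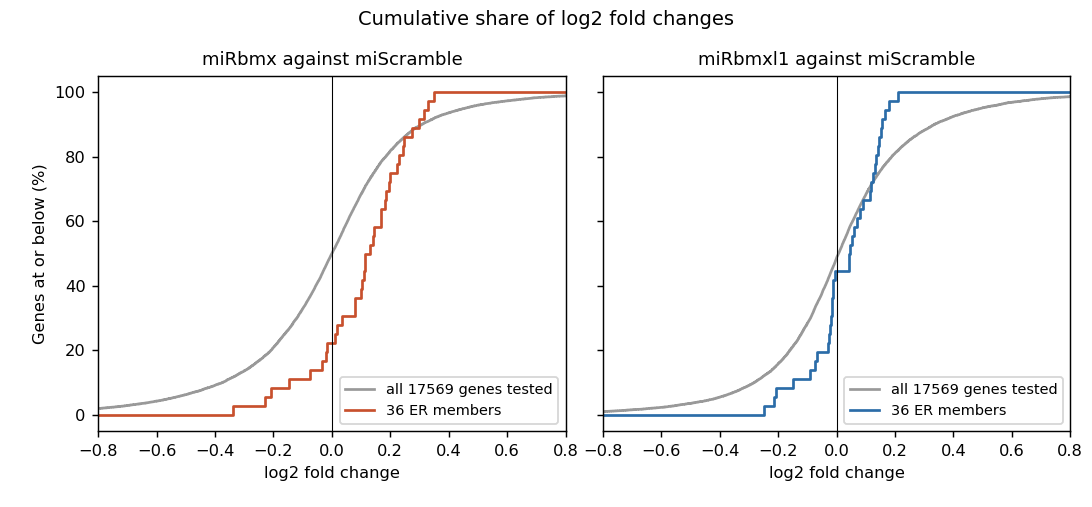
Cumulative share (%) of genes at or below each log2 fold change, for the 36 tested ER genes (coloured) and all 17569 tested genes (grey), with miRbmx (left) and miRbmxl1 (right) against miScramble; the ends of the grey curves beyond the axis are not drawn. With miRbmx the coloured curve lies to the right of the grey one over most of its length (medians 0.12 and −2.19e-05), and with miRbmxl1 it is steeper than the grey curve with a median of 0.04.

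These calls depended on the fit. The count was 2 with library size scaling only (Ern1 and Ssr2), where 7.88% of all tested genes were called. It was 12 with no filter on low counts (6.56% of all genes in that fit), 15 with only the 2 compared groups in the fit (12.9%), and 0 within replicates 1 and 2 (0.023%). Without the block, 0 members were called, the lowest adjusted p was 0.389, and over all genes 1 gene (0.00569%) was called. An unadjusted p under 0.05 was reached by 18 of the 36 members with the block, where 24.9% of all tested genes reached it, and by 1 member without the block, where 10.9% did. Of the 36 members, 20 were higher with miRbmx in 4 of 4 same-numbered pairs, and 2, Ern1 and Sec11c, were lower in 4 of 4. Over all genes 17.7% were higher and 16.8% lower in 4 of 4 pairs. The ranges of the 4 miScramble and 4 miRbmx libraries did not overlap for 3 members, Canx, P4hb and Sec61b, each higher with miRbmx, and for 4.22% of all genes in that direction. By pair, 30, 26, 25 and 27 of the 36 members were higher in replicates 1 to 4, with medians of 0.21, 0.08, 0.10 and 0.08. Between 48.2% and 52.3% of all genes were higher in these pairs. The number of calls was 1, Ern1, when any of these was left out: replicate 1, replicate 4, miScramble replicate 1, miScramble replicate 4, miRbmx replicate 1 or miRbmx replicate 3. It was 2 without miScramble replicate 2, 3 without replicate 3, miRbmx replicate 2 or miRbmxl1 replicate 4, and 9 without miRbmxl1 replicate 1. Over these and the other such fits, 16 in all, 0.831% to 10.7% of all genes were called.

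All 3 small proteins that ER stress is known to induce had positive estimates with miRbmx, and 2 of them rose. Manf encodes a secreted neurotrophic factor that also acts inside the ER (ENSMUSG00000032575, chr9:106838312-106891979, GRCm38). It was at 115, 114, 229 and 222 CPM in miScramble replicates 1 to 4, at 155, 130.2, 277 and 273 with miRbmx, and at 142, 135, 197 and 266 with miRbmxl1. Every miRbmx library was above the miScramble library of the same number, but the group ranges overlapped because replicates 3 and 4 were higher than 1 and 2 in all 3 groups. The log2 fold change with miRbmx was 0.30 ± 0.079 (SE), with an adjusted p of 0.0311 with the block and 0.788 without. Within replicates 1 and 2 alone it was 0.32, and within replicates 3 and 4 alone 0.28. The call was lost with library size scaling only (log2 fold change 0.27) and without replicate 1, replicate 4, miScramble replicate 1, 2 or 4, or miRbmx replicate 1, 3 or 4, with adjusted p-values up to 0.125 and fold changes of 0.25 to 0.37 over the 16 fits that each left out a library or a number. Manf shares 146 and 166 exonic bases with genes on the opposite strand (Dcaf1 and 4930524O07Rik) and 14 with Rbm15b on its own strand, and the strand setting of the counting is not given in the sources used here.

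Creld2, an ER-resident isomerase-like protein of the same stress program (ENSMUSG00000023272, chr15:88819646-88826683), was at 45.5, 49.1, 108 and 102 CPM in the miScramble libraries. The miRbmx libraries had 60.9, 51.3, 127 and 152 CPM and the miRbmxl1 libraries 53.2, 61.1, 92.4 and 129.5 CPM. All 4 miRbmx libraries were above their same-numbered control, by the least in replicate 2. The log2 fold change was 0.33 ± 0.095 (SE), adjusted p 0.0443 with the block and 0.799 without. Replicates 1 and 2 alone gave 0.26, replicates 3 and 4 alone 0.39. The call was lost with library size scaling only (0.30), and when replicate 1, 3 or 4, any miScramble library, miRbmx replicate 1, 3 or 4, or miRbmxl1 replicate 4 was left out, with adjusted p-values up to 0.241 and fold changes of 0.24 to 0.44.

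Sdf2l1, an ER-resident partner of BiP and its J-domain cochaperones, had the largest positive estimate of the 36 members but was not called. Its miScramble libraries were at 36.6, 36.3, 95.3 and 90.7 CPM, its miRbmx libraries at 54.0, 50.8, 104 and 111 and its miRbmxl1 libraries at 55.1, 52.9, 69.8 and 102. The difference with miRbmx was 0.35 ± 0.12 on the log2 scale (SE), adjusted p 0.0745, with 0.53 within replicates 1 and 2 and 0.20 within replicates 3 and 4. It passed the threshold without replicate 3, miScramble replicate 3 or miRbmxl1 replicate 3, with adjusted p-values down to 0.015 and fold changes up to 0.51. For the 3 genes together the median log2 fold change was 0.33 and 2 of the 3 were called upward, where 4.16% of all tested genes were.

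**Figure D2:**
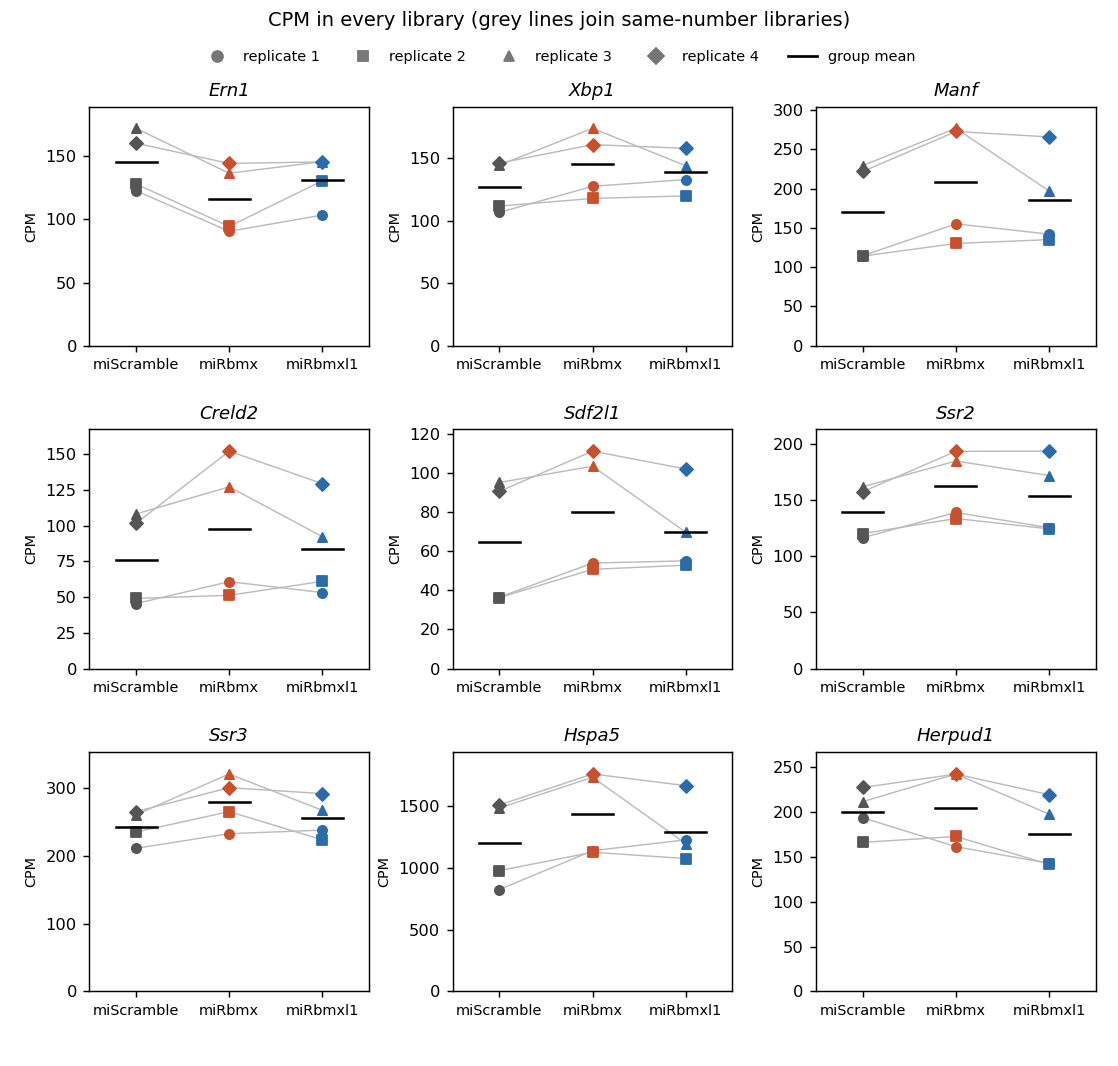
CPM of 9 ER genes in each of the 12 libraries, by group (grey miScramble, orange miRbmx, blue miRbmxl1) and replicate number (symbol); grey lines join libraries of the same number and black bars are group means, n = 4. Most lines for Manf, Creld2 and Sdf2l1 rise from miScramble to miRbmx while those for Ern1 fall, and replicates 3 and 4 lie above 1 and 2 in most panels.

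Among the stress sensors, Ern1 fell with miRbmx and the other sensor genes did not pass the test. Ern1 encodes IRE1, the kinase and RNase that splices Xbp1 (ENSMUSG00000020715, chr11:106394650-106487852). Its levels were 123, 128, 172 and 160.3 CPM with miScramble, 90.6, 94.5, 137 and 144 with miRbmx and 103, 131, 146 and 146 with miRbmxl1. Each miRbmx library was below the miScramble library of its number, and miRbmx replicates 1 and 2 were below all 4 miScramble libraries. The log2 fold change was −0.34 ± 0.068 (SE; 95% interval −0.48 to −0.19), a change of −20.9%, with an adjusted p of 0.0106 with the block and 0.522 without. Replicates 1 and 2 alone gave −0.43, replicates 3 and 4 alone −0.25. Over the 16 fits that left out a library or a number it ran from −0.40 to −0.27, and the call was lost in 2 of them, without replicate 3 and without miScramble replicate 3, where the highest adjusted p was 0.0604.

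Xbp1, the transcription factor whose messenger RNA IRE1 splices, was at 107, 112, 145 and 146 CPM in the control libraries, 128, 118, 174 and 161 with miRbmx and 133, 120.0, 144 and 158 with miRbmxl1. It was higher with miRbmx in 4 of 4 pairs, by 0.19 ± 0.062 on the log2 scale (SE), and was not called (adjusted p 0.0749). It passed the threshold without miRbmxl1 replicate 1, with an adjusted p of 0.0449. Gene counts add the spliced and unspliced forms of Xbp1 and say nothing of their ratio. Atf6, the sensor that becomes a transcription factor, was at 177, 196, 229 and 245 CPM with miScramble, 196, 192, 239 and 239.7 with miRbmx and 196, 184, 214 and 246 with miRbmxl1. Its difference with miRbmx was 0.034 ± 0.056 (SE, adjusted p 0.757, 95% interval −0.085 to 0.15). Eif2ak3, which encodes PERK, was at 41.0, 45.8, 53.2 and 56.6 CPM with miScramble, 44.2, 47.5, 57.8 and 58.1 with miRbmx and 50.8, 44.4, 51.8 and 56.9 with miRbmxl1. It differed by 0.079 ± 0.067 (SE, adjusted p 0.504, 95% interval −0.063 to 0.22). For both sensors the groups overlapped.

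The 6 chaperones all had positive estimates with miRbmx, and none was called, where 8.35% of all tested genes were. The estimates had a median of 0.14 and a range of 0.08 to 0.27. Hspa5 encodes BiP, the main Hsp70 of the ER (ENSMUSG00000026864, chr2:34771970-34777547). It was at 824, 977, 1484 and 1508 CPM with miScramble, 1138, 1126, 1733 and 1759 with miRbmx and 1226, 1075, 1196 and 1665 with miRbmxl1. All 4 miRbmx libraries were above the same-numbered control while the ranges overlapped. The log2 fold change was 0.27 ± 0.097 (SE), adjusted p 0.0928 with the block and 0.718 without, with 0.34 from replicates 1 and 2 alone and 0.22 from replicates 3 and 4 alone. It passed the threshold without miRbmxl1 replicate 1 or replicate 3, with an adjusted p down to 0.0291. Hsp90b1, the ER's Hsp90, was at 626, 729.9, 885 and 866 CPM with miScramble, 743, 773, 849.5 and 909 with miRbmx and 790.0, 777, 604 and 894 with miRbmxl1. Its difference of 0.079 ± 0.097 (SE, adjusted p 0.668) was positive in replicates 1, 2 and 4, turned to −0.0033 without miScramble replicate 1, and was −0.0063 within replicates 3 and 4. The other 4 were Hyou1, an Hsp70-like nucleotide exchange factor, the Hsp70-like Hspa13, and the lectins Calr and Canx, with estimates between 0.11 and 0.17. Canx was higher in all miRbmx libraries than in any miScramble library, at 1169, 1254, 1120.0 and 1113 against 974, 1106, 1038 and 1085 CPM, a log2 difference of 0.15 ± 0.084 (SE, adjusted p 0.3).

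The 4 disulfide isomerases, which make and reshuffle disulfide bonds, had a median of 0.25 with miRbmx, and none was called. The estimates were 0.31 for Pdia4, 0.25 for Pdia6, 0.24 for P4hb and 0.11 for Pdia3, with adjusted p-values of 0.091, 0.153, 0.0756 and 0.502. Of these, P4hb, the classical protein disulfide isomerase, had the clearest separation: its miScramble libraries were at 456, 475, 523 and 543 CPM and its miRbmx libraries at 576, 646, 550.4 and 586, without overlap. The J-domain cochaperones, which hand clients to BiP, were split. Dnajc3 was higher in 4 of 4 pairs at 0.20 ± 0.074 (SE, adjusted p 0.115), Dnajb11 was at 0.012, and Dnajc10, a cochaperone with reductase domains, was at −0.23 ± 0.083 (SE, adjusted p 0.0983). Dnajb9, a cochaperone induced through XBP1 that binds IRE1, was at 45.3, 47.7, 45.5 and 48.7 CPM with miScramble, 38.6, 38.2, 48.9 and 44.4 with miRbmx and 41.9, 33.5, 45.9 and 41.0 with miRbmxl1. Its control libraries lay close together across all 4 replicates, and its difference with miRbmx was −0.15 ± 0.077 (SE, adjusted p 0.257), lower in 3 of 4 pairs.

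The translocon and signal peptidase genes had 2 of 9 members called upward, 22.2%, where 4.16% of all tested genes were, with 8 positive estimates and a median of 0.17. Those 8 were each higher in 4 of 4 pairs, as were 17.7% of all genes. Ssr2 and Ssr3 encode the beta and gamma subunits of the translocon-associated protein complex, which sits beside the Sec61 channel. Ssr2 (ENSMUSG00000041355, chr3:88575876-88588419) was at 117, 120.3, 162 and 157 CPM with miScramble, 139, 134, 185 and 194 with miRbmx and 125, 124, 172 and 194 with miRbmxl1. The miRbmx library was the higher of each pair, while its replicates 1 and 2 lay below control replicates 3 and 4. The log2 fold change was 0.22 ± 0.054 (SE), adjusted p 0.0219 with the block and 0.684 without, with 0.21 from replicates 1 and 2 alone and 0.24 from replicates 3 and 4 alone. The call was lost without replicate 1, 3 or 4, miScramble replicate 1, 3 or 4, or miRbmx replicate 1, 2 or 3, with adjusted p-values up to 0.117. Its exons share 239 bases with Gm10704 on the opposite strand.

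Ssr3 (ENSMUSG00000027828, chr3:65379655-65392623) was at 211, 235, 261 and 266 CPM in the miScramble libraries. With miRbmx it was at 233, 266, 321 and 301 CPM and with miRbmxl1 at 238, 224, 267 and 292. Its log2 fold change with miRbmx was 0.20 ± 0.059 (SE), adjusted p 0.0491 with the block and 0.559 without, with 0.17 within replicates 1 and 2 and 0.23 within replicates 3 and 4. This was the weakest of the 5 calls: it was lost in 14 of the 16 fits, in all but those without miRbmxl1 replicate 1 or 2, with adjusted p-values up to 0.214, and with RLE (0.20) or library size scaling only (0.17) in place of TMM. The other subunits of the complex, Ssr1 and Ssr4, were at 0.11 ± 0.058 and 0.13 ± 0.054 (SE) with adjusted p-values of 0.242 and 0.151.

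Sec61a1, which encodes the pore of the channel, was at 407, 427, 551 and 548 CPM with miScramble, 484, 506, 593 and 595 with miRbmx and 488, 406, 534 and 631 with miRbmxl1. Its difference with miRbmx was 0.18 ± 0.068 (SE, adjusted p 0.109), with every pair in that direction. Sec61b, the small beta subunit of the channel, was at 45.3, 49.6, 47.6 and 51.7 CPM with miScramble and 53.5, 55.5, 57.4 and 61.9 with miRbmx, without overlap, a difference of 0.23 ± 0.082 (SE, adjusted p 0.0937). Of the signal peptidase, the accessory subunits Spcs1 and Spcs2 were at 0.10 and 0.17. The catalytic subunit Sec11c was at −0.21 ± 0.076 (SE, adjusted p 0.0983), the lower library of every pair being the miRbmx one.

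The ERAD genes showed the smallest differences with miRbmx. None of the 6 tested was called, the estimates ran from −0.08 to 0.10 with a median of −0.02, and no adjusted p was below 0.429. They were Herpud1, a membrane scaffold of the degradation complex, Syvn1, its ubiquitin ligase HRD1, the ligase's partner Sel1l, the mannose lectin-like Edem1, and the derlins Derl1 and Derl2. Herpud1 was at 194, 166, 211 and 227 CPM with miScramble, 161, 173, 242 and 242 with miRbmx and 143, 142, 198 and 219 with miRbmxl1. Its difference with miRbmx was 0.019 ± 0.069 (SE, adjusted p 0.894, 95% interval −0.13 to 0.16), lower in replicate 1 and higher in the other 3, and its sign turned within replicates 1 and 2 (−0.096) and with library size scaling (−0.011). Derl3 had 0, 0, 9 and 1 reads in miScramble replicates 1 to 4, at most 2 reads in any other library, and no fold is given.

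**Figure D3:**
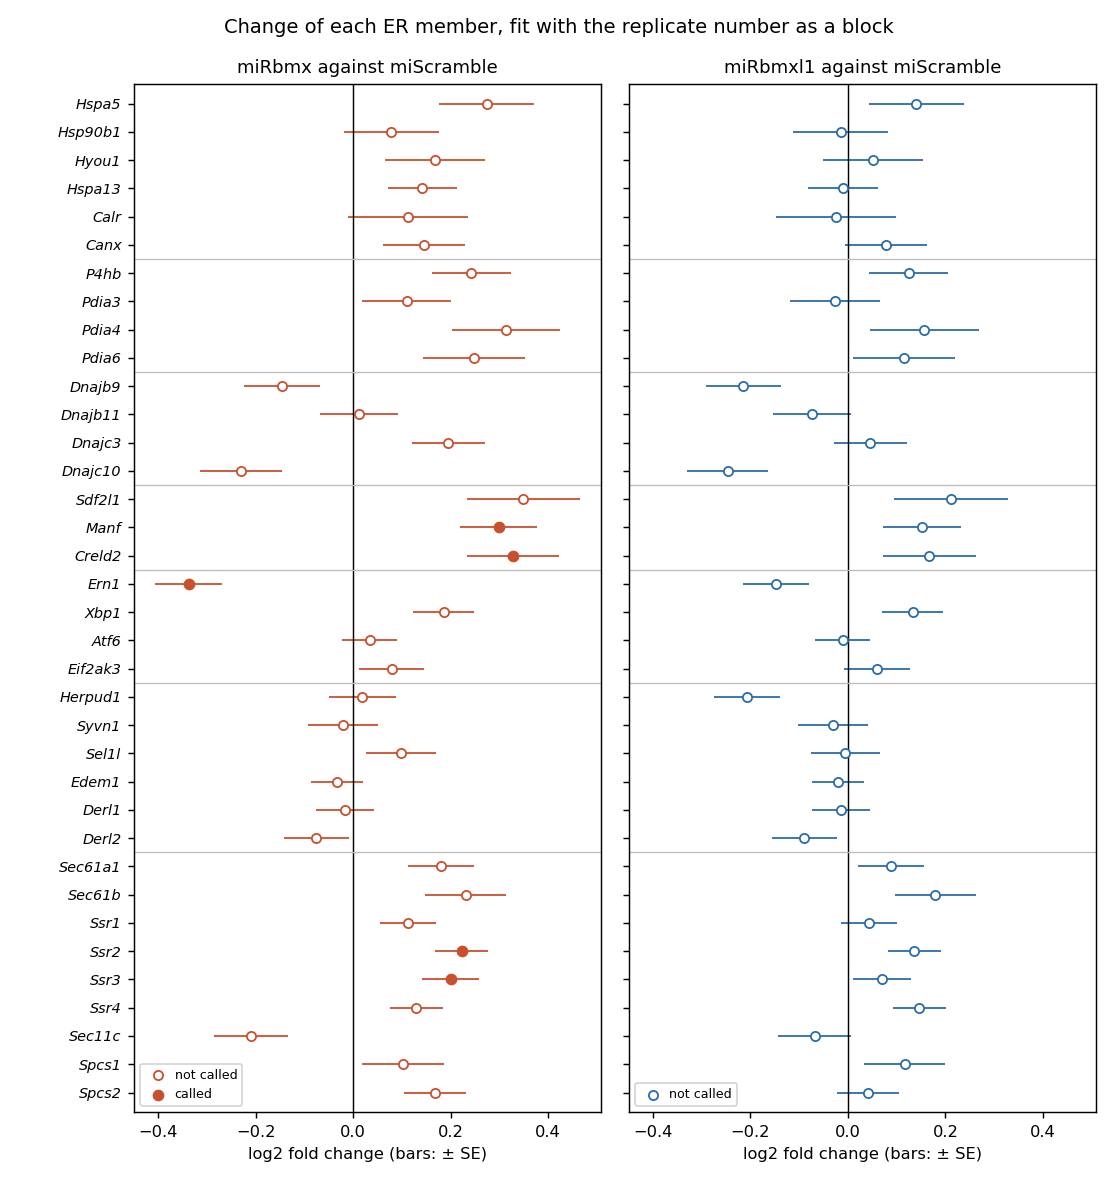
Log2 fold change (point) ± SE (bar) of the 36 tested ER genes with miRbmx (left) and miRbmxl1 (right) against miScramble, n = 4 per group, from the fit that includes a term for the replicate number; grey lines separate the 7 roles and filled points were called at an adjusted p under 0.05. The 5 filled points on the left are Manf, Creld2, Ssr2, Ssr3 and Ern1, the last on the negative side, and no point on the right is filled.

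The second comparison set cells with less Rbmxl1 against the same miScramble libraries, so the estimates of both comparisons share their control and their agreement is no separate evidence. With miRbmxl1, 0 of the 36 members were called, where 4.46% of all tested genes were, 2.25% upward and 2.2% downward. Without the block 0 members and 0.00569% of all genes were called. Of the members, 8 (22.2%) had an unadjusted p under 0.05 with the block, near the 19.8% of all tested genes, and none without, where 8.46% of all genes did. DESeq2 called 1, Herpud1, and 9.73% of the genes to which it gave an adjusted p. The estimates were positive for 20 and negative for 16, with a median of 0.04 and a range of −0.25 to 0.21, against a median of 0.007 over all genes. Herpud1 had the lowest adjusted p: it was lower in 4 of 4 pairs, with a log2 fold change of −0.21 ± 0.069 (SE, adjusted p 0.098 with the block and 0.858 without), and its miRbmxl1 replicates 1 and 2 were below every control library. Dnajc10 was also lower in 4 of 4 pairs, at −0.25 ± 0.083 (SE, adjusted p 0.104), with control libraries at 23.4, 22.7, 28.2 and 24.5 CPM and miRbmxl1 libraries at 17.9, 18.8, 25.8 and 21.3. Derl2 and Sec11c were the other members lower in 4 of 4 pairs, and Ssr2 and Ssr4 were higher in 4 of 4, where 13.4% of all genes were higher and 12.6% lower in all pairs.

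The members called with miRbmx had smaller estimates of the same sign with miRbmxl1, none of which passed the test. They were 0.15 ± 0.079 for Manf, 0.17 ± 0.095 for Creld2, 0.14 ± 0.054 for Ssr2, 0.07 ± 0.059 for Ssr3 and −0.15 ± 0.068 for Ern1 (log2 fold change ± SE), with adjusted p-values from 0.172 to 0.559. For Manf the 95% interval was −0.016 to 0.32 and for Ern1 −0.29 to −0.0032. For Creld2 it was −0.035 to 0.37, for Ssr2 0.020 to 0.25 and for Ssr3 −0.056 to 0.196. The miRbmx estimates of Manf, Creld2 and Ssr2 lay inside their miRbmxl1 intervals. Those of Ern1 and, narrowly, Ssr3 (0.1998) lay outside. The direct comparison of the knockdowns called none of these genes. Hspa5 was at 0.14 ± 0.098, Hsp90b1 at −0.015 ± 0.098, Xbp1 at 0.13 ± 0.062 and Dnajb9 at −0.21 ± 0.077 (SE), with adjusted p-values of 0.462, 0.958, 0.248 and 0.128. By role, the medians were 0.02 for the chaperones, 0.12 for the isomerases, −0.14 for the J-domain cochaperones, 0.17 for the small stress-inducible proteins, 0.02 for the sensors with Xbp1, −0.03 for ERAD and 0.09 for the translocon and signal peptidase.

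The miRbmxl1 pairs did not move together. Of the 36 members, 29 were higher than control in replicate 1, 15 in replicate 2, 7 in replicate 3 and 29 in replicate 4, with medians of 0.21, −0.02, −0.11 and 0.08. Fitted on replicates 1 and 2 alone the median was 0.08, and on replicates 3 and 4 alone it was −0.063. Replicate 3 of miRbmxl1 was low in chaperones and isomerases: it had 604 CPM of Hsp90b1 against 885 in its control, 771 against 1283 of Calr, 792 against 1123 of Hyou1, and 246 against 338 of Pdia4. The 9 translocon and signal peptidase genes were mixed in this pair, with log2 differences from −0.064 (Spcs2) to 0.46 (Sec61b), 6 of them above control and Sec61a1, Sec11c and Spcs2 below. This library had the fewest reads in genes of the 12, 43.1 M, and 32.0% of its file outside features, close to the 31.0% of its control, and their part in these levels was not tested. Without it, Sdf2l1 (0.39) and Manf (0.27) were called with miRbmxl1, as were 1.91% of all genes. Leaving out miRbmxl1 replicate 2 gave 2 other calls, Ern1 (−0.22) and Sec61b, where 5.77% of all genes were called. Leaving out number 2 or number 3 in all groups gave 1 each, Sec61b and Sdf2l1, where 3.93% and 0.609% of all genes were called. Within replicates 1 and 2 the 1 call was Sdf2l1, at 0.58 (0.172% of all genes called). Within replicates 3 and 4, where Sdf2l1 was at −0.14, it was Sec61b (5.53% of all genes called).

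Set directly against each other, the knockdown groups gave no call among the 36 members, where 0.0114% of all genes (2 genes) were called. With the block, 4 members had an unadjusted p under 0.05, as did 5.7% of all genes, without it none did, where 1.55% of all genes did, and DESeq2 called 0. Most estimates were higher with miRbmx (30 of 36, median 0.09, against −0.0036 over all genes), and by pair 12, 26, 29 and 24 members were higher with miRbmx in replicates 1 to 4. The largest was Herpud1 at 0.23 ± 0.069 (SE, 95% interval 0.08 to 0.37, adjusted p 0.859), with miRbmx the higher of all 4 pairs. Ern1 was lower with miRbmx in 4 of 4 pairs, with a difference of −0.19 ± 0.068 (SE, 95% interval −0.33 to −0.045, adjusted p 0.859). For the other called genes the difference was 0.15 ± 0.079 (interval −0.022 to 0.31) in Manf, 0.16 ± 0.095 (−0.04 to 0.36) in Creld2, 0.088 ± 0.054 (−0.028 to 0.20) in Ssr2 and 0.13 ± 0.059 (0.0038 to 0.26) in Ssr3. Their adjusted p-values were 0.862 to 0.891. In this comparison 2 members were higher and 1 lower in 4 of 4 pairs, and over all genes 5.63% and 6.52% were. A difference between the 2 knockdowns was thus not shown for any member, and the intervals do not show that the groups were alike.

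The median member differed more between replicates 3 and 4 and replicates 1 and 2 of a group than between treatments. In the miScramble libraries, 34 of the 36 members had a higher mean log2 CPM in replicates 3 and 4 than in 1 and 2, and for 30 of them both of the former were above both of the latter, which held for 31.0% of all genes. The median difference over members was 0.34, against 0.000262 over all genes. It ran from −0.19 (Spcs1) to 1.34 (Sdf2l1, 36.6 and 36.3 CPM in replicates 1 and 2 and 95.3 and 90.7 in 3 and 4). In the miRbmx group 32 members were higher and 30 were fully apart, with 36.9% of all genes apart in that direction, and the median was 0.33. In the miRbmxl1 group 33 were higher and 21 fully apart, with 30.1% of all genes apart, and the median was 0.25. The sets were seen in the data and no label names them as a batch, so no test was made between them.

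The genes with the highest differences were Sdf2l1, Creld2, Hyou1 and Manf in the miScramble group, and Creld2, Sdf2l1 and Manf in the miRbmx group. Creld2 differed by 1.14, 1.31 and 0.93 on the log2 scale in the miScramble, miRbmx and miRbmxl1 groups, and Manf by 0.98, 0.95 and 0.72. Hyou1, the large Hsp70-like chaperone, differed by 1.09, 0.69 and 0.62, and Hspa5 by 0.74, 0.62 and 0.30. Dnajb9 was at 0.017, 0.27 and 0.21, and Herpud1 at 0.29, 0.54 and 0.55. The ERAD genes Derl2 and Edem1 differed little, Derl2 by −0.035, 0.11 and −0.043, and Edem1 by 0.084, 0.087 and 0.027. Canx was at 0.032, −0.12 and −0.25, the last being the lowest value of any tested member in the miRbmxl1 group. Ern1, which fell with miRbmx, was higher in replicates 3 and 4 of every group, by 0.41, 0.60 and 0.32. The neuroblast markers were lower in replicates 3 and 4: 6 of 6 in the miScramble group (log2 differences of −0.66 to −0.017), 5 of 6 in the miRbmx group and 6 of 6 in the miRbmxl1 group. Their summed level was 1527 to 1544 CPM in replicates 1 and 2 and 1178 to 1182 in replicates 3 and 4 with miScramble, 1578 to 1715 and 1293 to 1315 with miRbmx, and 1469 to 1533 and 1291 to 1332 with miRbmxl1. The summed markers of other cell types were at 55.3 to 56.2 and 51.2 to 53.0 CPM with miScramble, 58.6 to 68.8 and 49.1 to 52.6 with miRbmx, and 61.6 to 69.6 and 45.1 to 52.4 with miRbmxl1. The share of reads outside features moved with the replicate sets too, as given above, and the part of these measures in the members' differences was not tested.

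**Figure D4:**
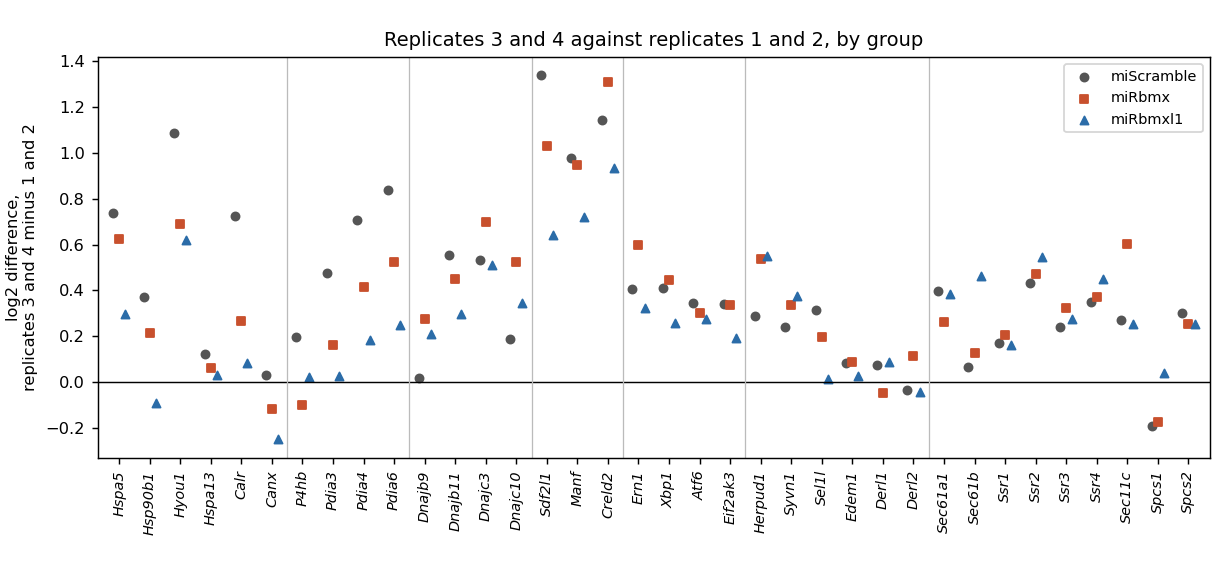
Difference in mean log2 (CPM + 0.5) between replicates 3 and 4 and replicates 1 and 2, for each of the 36 tested ER genes (x axis, by role) within each group (symbol and colour). Sdf2l1, Manf, Creld2 and Hyou1 have the highest values in miScramble, up to 1.34, and most points of all 3 groups lie above 0.

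Among the members with a promoter window, the 8 tested ones with an ER stress element differed between the replicate sets of the control by 0.03 to 1.14, with a median of 0.63. The 20 without the element differed by −0.19 to 1.34, with a median of 0.30, so the highest value, that of Sdf2l1, belonged to a gene without the full element in its window. With miRbmx the medians were 0.17 with the element and 0.11 without, with 1 of 8 and 2 of 20 called, where 8.35% of all tested genes were. With miRbmxl1 they were 0.06 and 0.04. These are descriptions without a test.

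**Figure D5:**
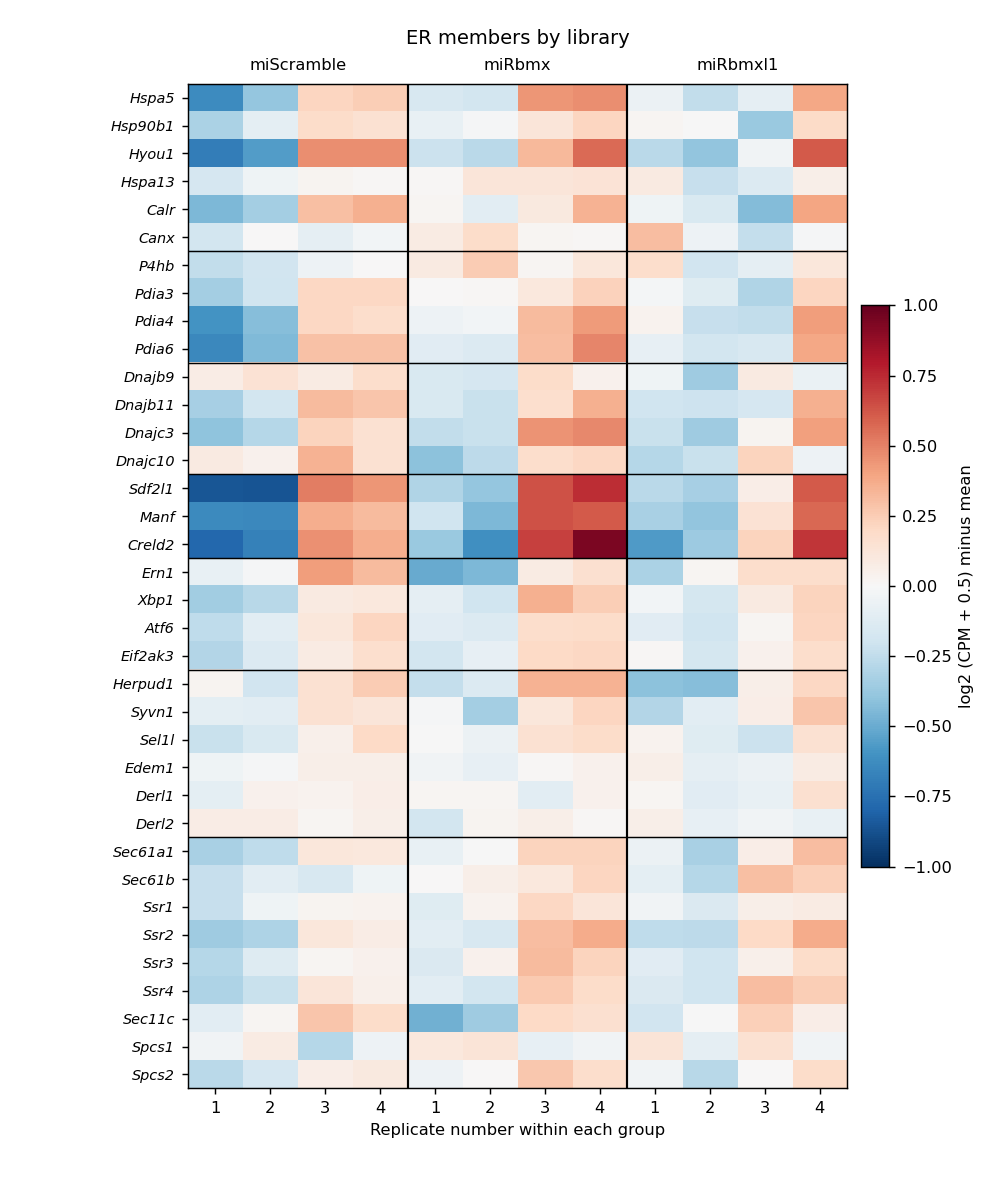
Log2 (CPM + 0.5) of each tested ER gene in each library, minus the gene's mean over the 12 libraries (colour, blue low and red high), with genes by role and libraries by group and replicate number. Replicates 3 and 4 are mostly red and replicates 1 and 2 mostly blue, most strongly for Sdf2l1, Manf and Creld2, and replicate 3 of miRbmxl1 is blue in most chaperones and isomerases.

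The surrounding pathway was followed with 66 other genes in 5 lists, all of which were tested. With miRbmx 9 of the 66 were called (13.6%, where 8.35% of all tested genes were), all upward (4.16% of all genes), 50 estimates were positive and 16 negative, and the median was 0.09. With miRbmxl1 4 were called (6.06%, where 4.46% of all tested genes were), all upward (2.25% of all genes), with a median of 0.04. Without the block none of the 66 was called in either comparison, the lowest adjusted p-values being 0.266 and 0.369. The list with the most calls was N-glycosylation and glucose trimming, with 4 of 12 called upward with miRbmx (4.16% of all genes), all 12 estimates positive and a median of 0.17. Ostc, a subunit of the oligosaccharyltransferase that works beside the translocon, was at 42.4, 49.3, 68.8 and 69.6 CPM with miScramble, 59.1, 64.5, 89.7 and 85.0 with miRbmx and 58.9, 51.8, 75.2 and 83.1 with miRbmxl1. It rose with miRbmx by 0.38 ± 0.067 (SE, adjusted p 0.00675), in 4 of 4 pairs. Its partner subunit Ddost rose by 0.23 ± 0.063 (adjusted p 0.0375), and Mogs, the glucosidase that makes the first cut in the attached glycan, by 0.20 ± 0.05 (adjusted p 0.024). Mogs was also called with miRbmxl1, at 0.20 ± 0.05 (adjusted p 0.0355).

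In the remaining lists the counts stand against 8.35% of all tested genes called with miRbmx and 4.46% with miRbmxl1. Of 15 other translocation genes 1 was called in each comparison, Srprb, which anchors the receptor of the signal recognition particle: it rose by 0.27 ± 0.062 with miRbmx (adjusted p 0.0172) and 0.24 ± 0.062 with miRbmxl1 (adjusted p 0.0445). Of 12 other oxidoreductases, cochaperones and prolyl isomerases, 2 rose with miRbmx, Erp29 by 0.25 ± 0.057 (adjusted p 0.0173) without overlap of the groups, and the isomerase Txndc5 by 0.19 ± 0.056 (adjusted p 0.0422). None of 13 other ERAD genes was called in either comparison. Of 14 genes of UPR control and the PERK branch, 2 were called in each. Creb3l2, an ER-anchored transcription factor related to ATF6, was at 74.6, 67.6, 68.6 and 63.2 CPM with miScramble, 87.6, 80.0, 115 and 85.0 with miRbmx and 89.6, 79.9, 108 and 86.6 with miRbmxl1, and every knockdown library was above every control library, which held for 4.22% of all genes with miRbmx and 2.88% with miRbmxl1. It rose by 0.41 ± 0.074 with miRbmx (adjusted p 0.00774) and 0.40 ± 0.074 with miRbmxl1 (adjusted p 0.0108). Nfya, a subunit of the factor that binds CCAAT, rose by 0.29 ± 0.059 with miRbmx (adjusted p 0.0109) and 0.29 ± 0.059 with miRbmxl1 (adjusted p 0.0165). The effectors of PERK on the list, Atf4, Ddit3, Trib3, Chac1, Atf3 and Ppp1r15a, were not called in either comparison. Both comparisons use the same control libraries, so a gene called in both is not called on independent samples.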

How the data were processed

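RNA-seq was read from 12 count files, 1 per library. The authors deposited raw counts per Ensembl gene, without normalization. The submitters' processing notes name the build mm10 and the tools cutadapt, STAR 2.5.3a, HTSeq 0.6.1p1, R 3.3.2 and DESeq2 1.16.1; annotation release and strand setting are not given in the sources used here. The 5 rows that name no gene held 52.3 to 57.4% of each file and were left out. Reads with several alignments were among them, which lowers genes with near-identical copies. Symbols, positions and exon lengths are from GENCODE M21 (GRCm38), which holds 55141 of the identifiers and lacks 260. Promoter windows are from RefSeq GRCm38.p6. Depth is 43.1 to 52.2 M reads in genes per library, and counts of a few reads limit only Derl3 among the members.

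In R 4.3.3, edgeR 4.0.16 kept genes by filterByExpr (minimum count 10, total 15), scaled libraries by TMM, and fitted all 12 libraries with group and replicate number as terms. Calls are at a Benjamini-Hochberg adjusted p under 0.05 over 17569 genes. Standard errors come from the fold change and the F statistic, 95% intervals from the same. The code was tested on simulated counts. The block was used because libraries of the same number deviated together: in log2 CPM (prior count 2) centred on group means, r was 0.195 to 0.524 over the 12 same-number pairs, 0.100 to 0.431 between numbers 1 and 2 or 3 and 4 (12 pairs), and −0.573 to −0.129 otherwise (24 pairs), so the pairing comes from the values and largely follows the 2 sets. Replicates of a group differed by more than sampling noise. Alternatives were no block, DESeq2 1.42.0, other scaling, no filter, leaving out libraries, within-set fits, fits of the 2 groups compared only, and a minimum mean CPM of 10.

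Members and lists were chosen with earlier results of these data known, so no p is adjusted over a list and no list was tested. All members may be named, library values are given for those called and for 11 chosen by role, and of the other lists at most the 3 called genes of smallest p are named. The library values of Canx, P4hb, Sec61b, Dnajc10, Ostc and Creb3l2, those of Hsp90b1, Calr, Hyou1 and Pdia4 chosen to describe miRbmxl1 replicate 3, and the names of 6 PERK effectors were added after their values were seen. Of the members, 11 overlap an exon on the opposite strand and 3 one on the same strand, and their counts are uncertain to that extent. ER retention signals of the proteins were not analysed here. Of the cell type markers, 2 are not reported here.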

Additional observations from a re-analysis of the deposited data

Results flagged for a closer look

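Of 108 sets of 4 libraries (36 genes in 3 groups), 3 had a library far from the others by Dixon's criterion for 4 values, where chance gives about 5.4. Hspa13, an Hsp70-like chaperone, was at 74.8 CPM in miRbmx replicate 1, with the other miRbmx libraries at 80.6 to 81.5 (gap over range 0.864). Pdia6, a disulfide isomerase, was at 331 CPM in miRbmxl1 replicate 4, with the others at 223 to 239 (0.849). Dnajb11, a BiP cochaperone, was at 134 CPM in the same library, with the others at 90.9 to 93.3 (0.944). In replicates 3 and 4 of the miScramble and miRbmx groups, Pdia6 and Dnajb11 were at 311 to 355 and 118 to 134 CPM.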

How the results depend on the processing

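With miRbmx, 5 members were called; the count was 0 with no replicate block, 0 within replicates 1 and 2, 2 with library size scaling only, 12 with no filter and 15 with only the 2 groups compared in the fit. It stayed within 1.5 times with DESeq2 (7), RLE scaling (4) and within replicates 3 and 4 (5). Those fits called 15%, 7.99% and 10.1% of all genes given an adjusted p. The count was 1 to 9 over the fits that left out a library or a number, where 0.831% to 10.7% of all genes were called. With miRbmxl1, 0 were called, but 1 with DESeq2, with no filter, within replicates 1 and 2 and within replicates 3 and 4. Those fits called 9.73%, 3.91%, 0.172% and 5.53% of all genes. When leaving out, 0 to 2 members and 0.57% to 5.77% of all genes were called. Between the knockdowns, 0 were called under every alternative, where at most 0.271% of all genes were. No member was called in any comparison without the replicate block. Partial fits hold fewer samples, and the cause of the other shifts was not tested. The median of the members moved by less than its spread between pairs (SD 0.058, 0.14 and 0.12): 0.087 to 0.18 with miRbmx, −0.035 to 0.097 with miRbmxl1, where it was −0.063 within replicates 3 and 4, and 0.0089 to 0.16 between knockdowns. The sign turned for some single genes. With miRbmx these were Hsp90b1 (−0.0063 within replicates 3 and 4, −0.0033 to 0.20 leaving out), Herpud1 (−0.011 with library size scaling, −0.096 within replicates 1 and 2, −0.035 to 0.11) and Atf6 (−0.0091 to 0.062). With miRbmxl1 they were Hspa5 (−0.087 within replicates 3 and 4, −0.011 to 0.28), Hsp90b1 (0.22 within replicates 1 and 2, −0.14 to 0.16), Atf6 (0.036 within replicates 1 and 2, −0.068 to 0.021), Eif2ak3 (−0.025 within replicates 3 and 4, −0.031 to 0.099) and Sdf2l1 (−0.14 within replicates 3 and 4). Between knockdowns Creld2 was at −0.029 within replicates 1 and 2.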
